A study of Caenorhabditis elegans with 9 samples.

Results

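The α- and β-tubulin genes of Caenorhabditis elegans described here were tba-1, tba-2, tba-4, tba-9 and mec-12, which encode α-tubulins, and tbb-1, tbb-2, tbb-4, tbb-6 and mec-7, which encode β-tubulins. These 10 genes, out of 17118 genes represented on the array by a probe set of their own, were read by 13 of the 22548 probe sets, and each gene was followed with its brightest probe set over all arrays. The gene tbb-6 had been chosen by its log2 signals in the overactivation arrays, which were higher than in the other groups, so its differences involving overactivation are given as values without a test. The genes mec-7, mec-12 and tbb-4 had been included as neuronal tubulins.

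Microtubules are hollow polymers of α- and β-tubulin dimers that form the spindle, the tracks of kinesin and dynein motors and the core of cilia. The products of tba-1, tba-2, tbb-1 and tbb-2 are the broadly used tubulins of dividing C. elegans cells. The products of mec-12 and mec-7 pair in the wide microtubules of the touch receptor neurons, and tba-9 and tbb-4 are known from ciliated sensory neurons. The gene tbb-6 is known in C. elegans as a gene whose reporter is switched on when mitochondrial function is disturbed, through the kinases DLK-1, SEK-3 and PMK-3.

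Signals were measured on 9 Affymetrix arrays, with 3 arrays each for the strain with Wnt overactivation (deIs10; huIs1), the strain with Wnt underactivation (deIs10; deIs26) and the untagged N2 strain. Larvae at the L2-L3 stage were heat shocked at 37° for 30 min after 26 h of growth at 20° and recovered for 1 h, N2 included. In huIs1 the heat shock promoter of hsp-16.2 drives ΔNTBAR-1, a β-catenin that escapes degradation, and in deIs26 it drives ΔNTPOP-1, a TCF that cannot bind β-catenin. Both tagged strains carry deIs10, from 1 integrated line, in which an enhancer of bar-1 drives FLAG::PAB-1 in seam cells and vulval precursor cells (VPCs) for coimmunoprecipitation of mRNA and which also holds ajm-1::gfp and unc-30(+). Their background is dpy-20(e1282) unc-30(e191), and huIs1 and deIs26 also hold dpy-20(+). The methods and the sample labels give the arrays as mRNA recovered by coimmunoprecipitation and amplified, also for N2, while other fields of the labels describe labelled cRNA from total RNA, and the values do not settle this. N2 has none of these transgenes, so no RNA on its arrays was recovered through the tag, and in comparisons with N2 the effect of Wnt signaling cannot be told apart from that of the tag and the strain background. All values are log2 signals, on which a difference of 1 is a doubling, and signals of different probe sets are not set against each other.

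The arrays correlated at 0.942 to 0.976 within groups. Underactivation replicate 4 correlated more closely with N2 replicate 4 (0.973) than with the other underactivation arrays (0.969 and 0.971). The mean signal in overactivation was above that in N2 for 11 of 14 seam cell genes. The median difference was 1.09 log2, against 0.07 over all genes. The unadjusted p from limma was under 0.05 for 7 with a higher mean and 1 with a lower one. The gene that passed, ajm-1, is also part of deIs10. Its call held in 6 of 9 fits with 1 array left out and was lost without moderation (adjusted p = 0.119 from limma). In underactivation 9 of the 14 had a higher mean than in N2, with a median difference of 0.33. At an unadjusted p under 0.05 from limma 3 were higher and 1 lower there, beside 12.8% of all probe sets. The 14 genes averaged 7.10 to 7.54 on N2 arrays, 7.43 to 8.11 in underactivation and 8.04 to 8.40 in overactivation. The study had selected che-14, grd-3, egl-18 and elt-6 of these seam cell genes, and the VPC gene lin-1, as Wnt targets. Among the genes it selected were also the hypodermal gene nhr-23 and tbb-6 itself. A rise in overactivation over N2 was 1 of its criteria, so the differences of these genes are not independent of that choice. Of 11 VPC genes, 0 passed and 5 had a higher mean, with 3 higher at an unadjusted p under 0.05 from limma, a level that 17.9% of all probe sets reached in this comparison. The mean signal of 23 body wall muscle genes was 9.51 to 9.63 on N2 arrays, 8.59 to 9.16 in underactivation and 8.27 to 8.80 in overactivation. The 20 pan-neuronal genes averaged 6.95 to 7.09 in N2, 6.54 to 6.80 in underactivation and 6.51 to 6.53 in overactivation. Between overactivation and N2, 3 muscle, 1 intestinal and 1 pan-neuronal gene passed as lower, and 0 of 11 hypodermal, 11 pharyngeal and 17 germline genes passed. Over all probe sets 1.56% passed in this comparison. With 1 array left out, the intestinal call (ges-1) held in 0 of 9 fits and the pan-neuronal call (egl-3) in 4. The muscle calls of myo-3, unc-54 and unc-98 held in 3, 2 and 2 of 9. Each of these calls was lost without moderation (adjusted p from 0.117 to 0.160 from limma). At an unadjusted p under 0.05 from limma 2 hypodermal and 3 pharyngeal genes were higher, and 3 germline, 17 of 23 muscle and 10 of 21 intestinal genes were lower. Of the 20 pan-neuronal genes 2 were higher and 6 lower at that level. The probe set of pop-1 read 8.67 to 11.71 in underactivation and 4.81 to 6.42 on the other arrays, and that of bar-1 read 9.64 to 11.75 in overactivation and 9.04 to 9.55 on the others. Actin control probe sets at the 3' end exceeded those at the 5' end by 0.67 to 0.91 log2 in N2, 0.90 to 2.35 in underactivation and 1.47 to 2.25 in overactivation. The part of these shifts in the tubulin values below was not tested. Recovery of RNA through the tag, fewer cells of a type and less RNA per cell cannot be told apart.

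Among the 10 tubulin genes, tbb-6 had the widest separation of overactivation from the other groups, the property by which it had been chosen. Its signal (189718_at) was 6.05, 5.82 and 5.66 in overactivation replicates 1, 3 and 4. It was 4.10, 4.60 and 3.89 in N2 replicates 2, 3 and 4, and 4.29, 4.02 and 3.73 in underactivation replicates 2, 4 and 5. Every overactivation array lay above every array of the other groups, and N2 and underactivation overlapped. The group means were 5.84 ± 0.19 (SD, n = 3) in overactivation, 4.20 ± 0.37 (SD, n = 3) in N2 and 4.01 ± 0.28 (SD, n = 3) in underactivation. The difference was 1.65 log2 over N2 (3.13-fold) and 1.83 log2 over underactivation (3.56-fold). When each array was left out in turn it ranged from 1.49 to 1.85 over N2 and from 1.69 to 1.97 over underactivation. These ranges describe the chosen values and are not a test of them. Underactivation minus N2, a contrast that the choice of tbb-6 did not use but which shares its arrays, was -0.18 log2 (95% interval -0.74 to 0.37, adjusted p = 0.842 from limma).

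**Figure D1:**
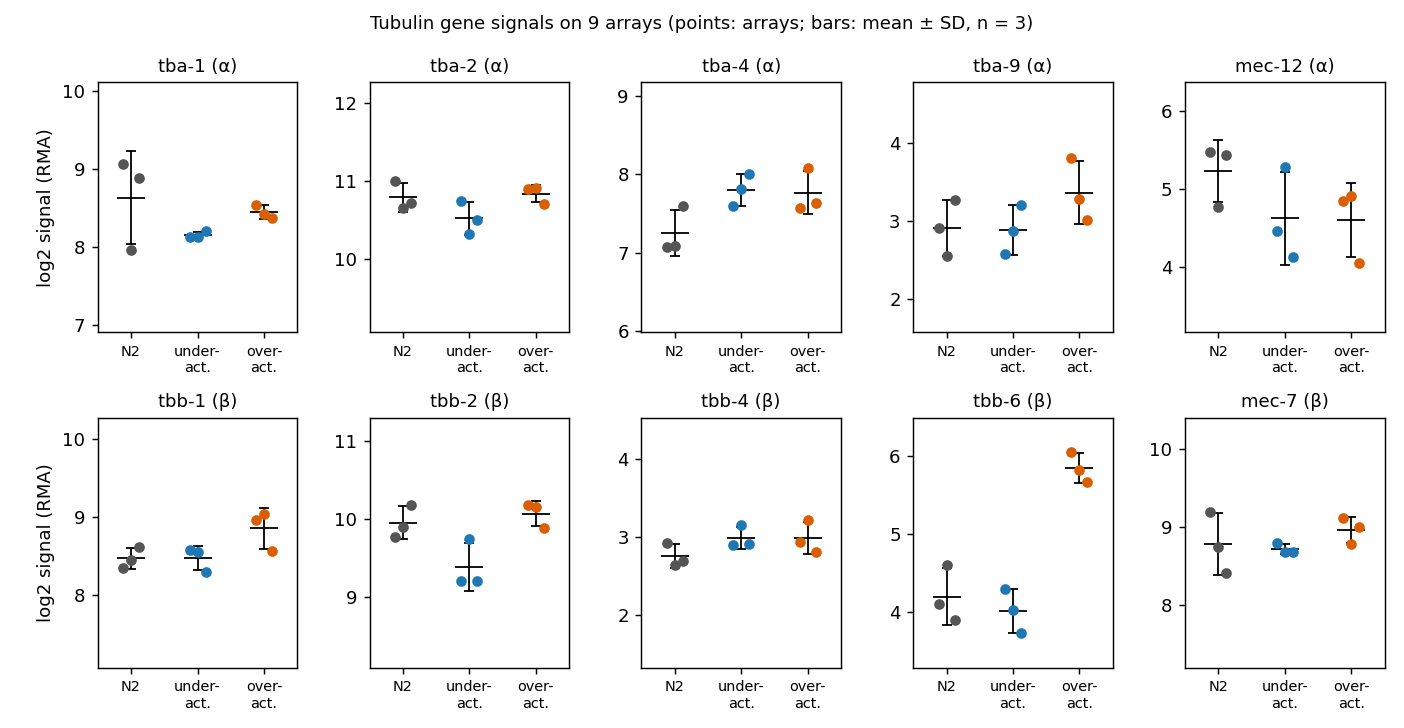
Log2 signal of each tubulin gene on every array, in panels of equal height (3.2 log2 units), with points for arrays and bars for the mean and SD of 3 arrays. The overactivation arrays of tbb-6, at 5.66 to 6.05, stand clear of the other groups, whereas the group means of the other 9 genes differ by at most 0.68.

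For overactivation against N2, 0 of the other 9 tubulin genes passed (adjusted p under 0.05, limma), whereas 1.56% of all probe sets did. At an unadjusted p under 0.05 it was also 0 of 9, against 17.9% of all probe sets. Their differences ran from -0.63 for mec-12 to 0.52 for tba-4, with a median of 0.19, beside a median of 0.04 over all probe sets. The overactivation arrays overlapped the N2 arrays in all 9, and over all probe sets 20.7% did not overlap. The 95% intervals reached 0.42 to 0.83 log2 to either side. A p that misses the threshold does not show that the genes were equal.

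The broadly used α-tubulin genes had small differences of mixed sign. The signal of tba-1 (192922_s_at) was 9.06, 7.96 and 8.88 in N2 replicates 2, 3 and 4, against 8.54, 8.43 and 8.38 in overactivation replicates 1, 3 and 4 and 8.13, 8.13 and 8.20 in underactivation replicates 2, 4 and 5. The tagged groups were tight (SD 0.09 and 0.04) and N2 was spread (SD 0.59), with N2 replicate 3 below every other array. Overactivation minus N2 was -0.18 log2 (95% interval -0.81 to 0.44, adjusted p = 0.783) and was -0.52 without N2 replicate 3 and 0.03 without N2 replicate 2. All overactivation arrays of tba-1 lay above all underactivation arrays, by 0.30 log2 between means (95% interval -0.33 to 0.92, adjusted p = 0.948 from limma).

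The brightest probe set of tba-2 (171948_x_at) read 10.71 to 10.91 in overactivation, 10.66 to 10.997 in N2 and 10.32 to 10.74 in underactivation, with overlap between all groups. N2 replicate 2 was the highest of all 9 arrays, and underactivation replicate 4 was the lowest. The other 2 tba-2 probe sets gave differences of opposite sign. For 171814_x_at overactivation minus N2 was 0.43 log2 (adjusted p = 0.387 from limma), with no overlap of the arrays, and for 187081_s_at it was -0.36 (adjusted p = 0.511 from limma), beside 0.05 (adjusted p = 0.925 from limma) for the brightest. Over the 9 arrays these probe sets correlated at -0.46 to 0.39 with each other. The suffix _x_at marks probe sets with probes that also match other transcripts, and _s_at marks probes shared by several transcripts. Tubulin genes are close in sequence, so each such value may hold signal of related genes.

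**Figure D2:**
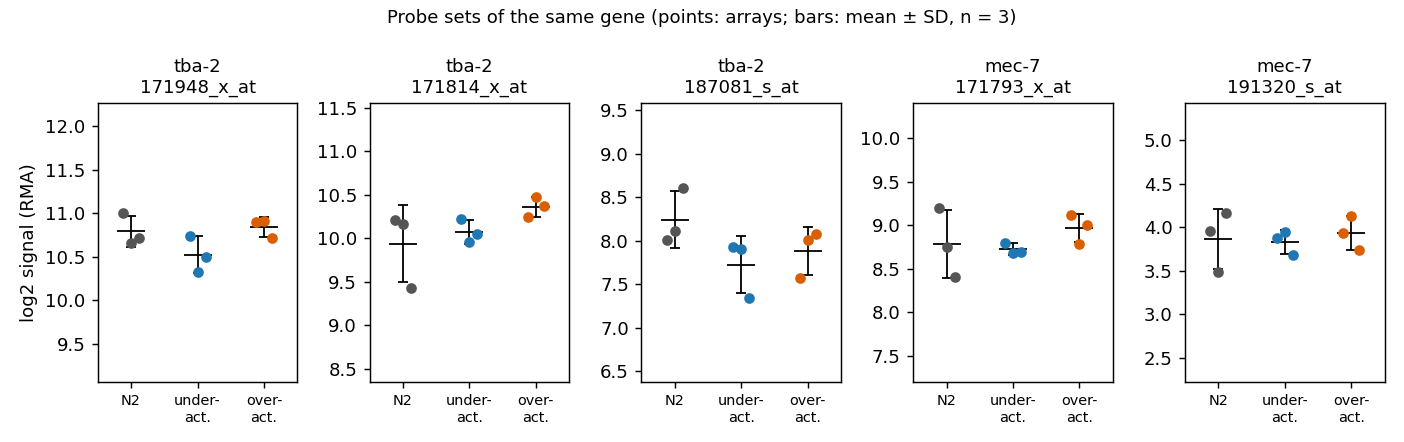
Log2 signal on each array for the 3 probe sets of tba-2 and the 2 probe sets of mec-7, with bars for the mean and SD of 3 arrays and panels of equal height. The 3 tba-2 probe sets differ between overactivation and N2 by 0.05, 0.43 and -0.36, and the mec-7 probe sets by 0.19 and 0.07.

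The α-tubulin gene tba-4, whose probe set (190366_at) has no such suffix, read 7.08, 7.08 and 7.59 on N2 replicates 2, 3 and 4. The tagged arrays read 7.60, 7.81 and 8.01 in underactivation and 7.58, 8.08 and 7.64 in overactivation. Both tagged groups thus had higher means than N2, by 0.56 log2 in underactivation (95% interval 0.04 to 1.08, adjusted p = 0.357) and by 0.52 in overactivation (95% interval -0.0027 to 1.03, adjusted p = 0.281 from limma), and neither passed. Overactivation minus underactivation was -0.04 (95% interval -0.56 to 0.48). Without N2 replicate 4, the highest N2 array, the difference in overactivation was 0.69.

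Of the broadly used β-tubulin genes, tbb-2 had a lower mean in underactivation than in both other groups, but neither difference passed. Its arrays (189134_s_at) read 9.21, 9.75 and 9.21 in underactivation replicates 2, 4 and 5, and 9.78 to 10.19 in N2 and 9.89 to 10.18 in overactivation. The underactivation arrays lay below all others, with replicate 4 closest to them. Overactivation minus underactivation was 0.68 log2 (1.61-fold, 95% interval 0.20 to 1.17, unadjusted p = 0.0114, adjusted p = 0.685 from limma) and underactivation minus N2 was -0.57 (95% interval -1.05 to -0.08, adjusted p = 0.317). In overactivation minus N2 it was 0.12 (95% interval -0.37 to 0.60), and ran from 0.03 when N2 replicate 2 was left out to 0.23 when N2 replicate 4 was. Overactivation minus underactivation was 0.86 without underactivation replicate 4.

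The signal of tbb-1 (189586_s_at) was 8.96, 9.04 and 8.56 in overactivation replicates 1, 3 and 4, 8.35 to 8.61 in N2 and 8.30 to 8.57 in underactivation. Replicate 4 of overactivation lay among the other groups' arrays. The difference from overactivation was 0.38 log2 to N2 and 0.38 to underactivation (95% intervals -0.05 to 0.82 and -0.06 to 0.81, adjusted p = 0.340 and adjusted p = 0.906 from limma). Underactivation minus N2 was 0.005 (95% interval -0.43 to 0.44).

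Of the neuronal tubulin genes mec-12, mec-7, tbb-4 and tba-9, 0 passed in any comparison, and 0 had an unadjusted p under 0.05 from limma, against 17.9%, 5.66% and 12.8% of all probe sets. For mec-12, the touch neuron α-tubulin (191281_s_at), N2 replicates 2, 3 and 4 read 5.48, 4.77 and 5.44. The overactivation arrays read 4.85, 4.91 and 4.05 and the underactivation arrays 4.46, 5.28 and 4.12, overlapping N2. The difference from N2 was -0.63 in overactivation (95% interval -1.46 to 0.20, adjusted p = 0.416) and -0.61 in underactivation (95% interval -1.44 to 0.23, adjusted p = 0.564 from limma), and between the tagged strains it was -0.02. The former was -0.35 without overactivation replicate 4. The difference in underactivation was -0.36 without underactivation replicate 5 and -0.94 without underactivation replicate 4.

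The brightest probe set of mec-7, the touch neuron β-tubulin, is an _x_at probe set (171793_x_at). It read 8.41 to 9.19 in N2, 8.68 to 8.80 in underactivation and 8.79 to 9.12 in overactivation, whereas the second probe set of mec-7 (191320_s_at) read 3.49 to 4.16 over all 9 arrays. Over the arrays they correlated at -0.14. Overactivation minus N2 was 0.19 log2 for the first (95% interval -0.32 to 0.69) and 0.07 for the second (95% interval -0.43 to 0.56), and neither passed (adjusted p = 0.721 and adjusted p = 0.913 from limma). Which of these probe sets follows mec-7 mRNA cannot be told from the deposited signals.

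Both genes of ciliated neurons read in the dimmest tercile of probe sets, where a level has not been shown to be above background. The signal of tbb-4 (190169_s_at) ranged from 2.64 to 3.21 and that of tba-9 (189833_at) from 2.55 to 3.80 over all arrays, with groups that overlapped. The differences of overactivation were 0.23 to N2 and -0.001 to underactivation for tbb-4, and 0.46 and 0.48 for tba-9 (all adjusted p from 0.450 to 0.999, limma). Without overactivation replicate 1, the highest array of tba-9, the differences of tba-9 were 0.24 to N2 and 0.26 to underactivation. Without overactivation replicate 3 the difference of tbb-4 from N2 was 0.12.

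Between overactivation and underactivation, which share the tag and the background, 0 of the 9 tubulin genes passed, and over all probe sets 0.00443% passed. At an unadjusted p under 0.05 from limma 1 of 9 was called, tbb-2 (5.66% over all probe sets), and arrays did not overlap in 2 of 9, tba-1 and tbb-2 (11.8% over all probe sets). For underactivation against N2, 0 of all 10 passed (0.00443% over all probe sets). There, tba-4 was higher and tbb-2 lower at an unadjusted p under 0.05 from limma (2 of 10, against 12.8%), and the arrays of the same 2 genes did not overlap (against 15.7%). Without tbb-6 the medians were 0.30 and -0.06, beside 0.03 and 0.01 over all probe sets. In 4 of these 9 genes the order of the means was overactivation, N2, underactivation, as it was in 13.9% of all probe sets, but the 95% intervals between neighbouring means included 0 in all of these except for tbb-2 between N2 and underactivation.

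**Figure D3:**
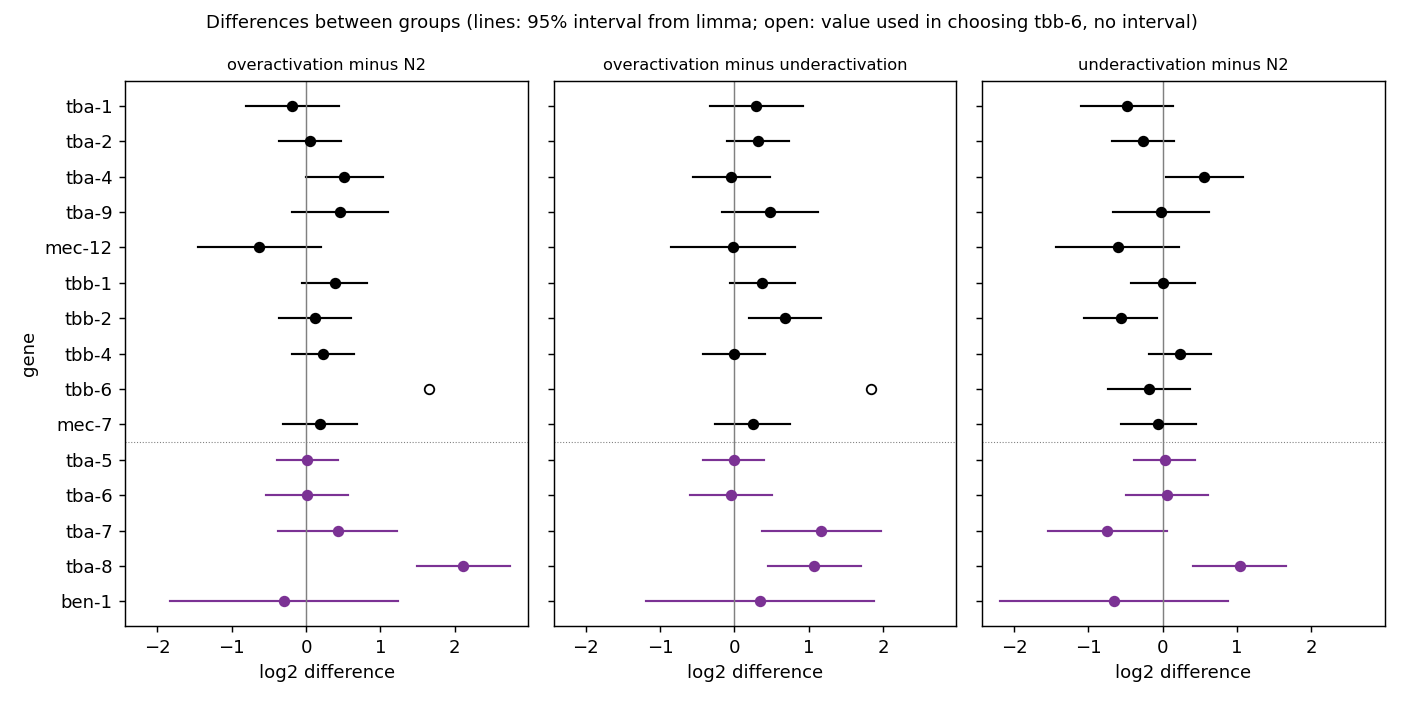
Log2 differences of the 10 tubulin genes and, below the dotted line, of 5 further tubulin genes in each comparison, with 95% intervals from limma as lines. The open points of tbb-6, at 1.65 and 1.83, carry no interval because they were used in choosing it, and tba-8 at 2.11 lies farthest from 0 in overactivation minus N2.

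Other α- and β-tubulin genes measured on the array were tba-5, tba-6, tba-7, tba-8 and ben-1, the gene of the β-tubulin that benzimidazole drugs target. One of these 5, tba-8, was higher in overactivation than in N2. The signal of tba-8 was 8.52, 8.65 and 8.71 in overactivation replicates 1, 3 and 4, 7.21, 7.31 and 8.13 in underactivation replicates 2, 4 and 5, and 6.44, 6.25 and 6.85 in N2 replicates 2, 3 and 4. The 3 groups did not overlap, and underactivation lay between the others. The rise over N2 was 2.11 log2 (4.33-fold, standard error 0.275, adjusted p = 0.0188 from limma) and kept passing when any array but overactivation replicate 3 was left out (adjusted p = 0.0752 without it). The call of tba-8 was lost without moderation and with the fixed replicate block (adjusted p = 0.116 and 0.143 from limma). Overactivation minus underactivation was 1.08 (95% interval 0.45 to 1.70, adjusted p = 0.488) and underactivation minus N2 1.04 (95% interval 0.41 to 1.66, adjusted p = 0.171 from limma), which did not pass. The underactivation mean of tba-8 lay above that of N2, and the underactivation mean of tbb-6 below it. Neither difference passed (adjusted p = 0.171 and 0.842 from limma), and that of tbb-6 was 0.018 without N2 replicate 3.

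The signal of tba-7 was 6.97 to 7.98 in overactivation, 5.95 to 6.35 in underactivation and 6.29 to 7.40 in N2. Overactivation and underactivation did not overlap, at 1.17 log2 (95% interval 0.37 to 1.97, adjusted p = 0.651 from limma). The genes tba-5 and tba-6 read 2.72 to 3.51 over all arrays, in the dimmest tercile, and differed between any groups by at most 0.06. The brightest ben-1 probe set read 8.01 on N2 replicate 2 and 5.23 to 6.51 on the other arrays, and its second probe set read 3.39 to 4.38.

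Genes that fold tubulin, nucleate or bind microtubules or move along them were followed through lists. Of 20 folding genes 1 passed in overactivation against N2, pfd-1, a prefoldin subunit that hands nascent tubulin and actin to the chaperonin. At an unadjusted p under 0.05 from limma 3 of the 20 were higher and 2 lower (17.9% of all probe sets in either direction). The signal of pfd-1 was 10.35 to 10.78 in N2, 11.33 to 11.41 in underactivation and 11.43 to 11.62 in overactivation (0.97 log2, adjusted p = 0.0351 from limma, which held in 2 of 9 leave-one-out fits, without N2 replicate 4 and without underactivation replicate 4). The call of pfd-1 was lost without the dimmest tercile, with only the groups compared, without moderation and with the fixed replicate block (adjusted p = 0.0563, 0.0931, 0.105 and 0.209 from limma). The list median was -0.01, beside 0.07 over all genes. Of 19 dynein and dynactin genes 1 passed, the dynactin subunit gene dnc-3. At an unadjusted p under 0.05 from limma 6 of the 19 were higher and 1 lower (17.9% of all probe sets in either direction). The signal of dnc-3 was 6.54 to 7.08 in N2, 8.17 to 8.18 in underactivation and 8.31 to 8.49 in overactivation (1.55 log2, adjusted p = 0.0180 from limma). Of the 9 leave-one-out fits dnc-3 failed without overactivation replicate 3 (adjusted p = 0.0704), and it also failed with only the groups compared, without moderation and with the fixed replicate block (0.0576, 0.0605 and 0.149). The list median was 0.21. Both genes had tagged groups that lay together above N2.

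Of 24 genes of microtubule-associated proteins 1 passed as lower in overactivation than in N2, unc-76, which encodes an adaptor of axonal transport. At an unadjusted p under 0.05 from limma 1 of the 24 was higher and 5 were lower (17.9% of all probe sets in either direction). The signal of unc-76 was 10.37 to 10.83 in N2, 8.73 to 9.91 in underactivation and 8.56 to 9.23 in overactivation (-1.76 log2, adjusted p = 0.0401 from limma, which held without N2 replicate 2 and without underactivation replicate 4, in 2 of 9). The call of unc-76 was lost with array weights, with only the groups compared, without moderation and with the fixed replicate block (adjusted p = 0.0524, 0.0621, 0.152 and 0.143 from limma). The list median was -0.30 and 5 of 24 genes had a higher mean. Of 21 kinesin genes 0 passed, with a median of -0.35. The unadjusted p from limma was under 0.05 for 2 of these, both with lower means (17.9% of all probe sets in either direction). The largest differences belonged to genes other than those 2. They were those of osm-3, the motor of sensory cilia, at -1.56 (unadjusted p = 0.0698, adjusted p = 0.322 from limma), and klp-11, a kinesin-II motor subunit, at -1.08 (unadjusted p = 0.0550, adjusted p = 0.291 from limma). Of 12 γ-tubulin and centrosome genes and 10 genes of tubulin modifying enzymes 0 passed, and the medians were -0.04 and -0.34. In each list 2 had an unadjusted p under 0.05 from limma, beside 17.9% of all probe sets. The largest were spd-5, a centrosome scaffold gene, at -1.38 (adjusted p = 0.0904), and hda-6, the gene of a deacetylase, at -0.91 (adjusted p = 0.154 from limma).

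In the other comparisons 0 genes of these 6 lists passed. At an unadjusted p under 0.05 from limma, which 5.66% of all probe sets had, 2 of 21 kinesin genes were higher in overactivation than in underactivation and 0 genes of the other 5 lists were called. In underactivation relative to N2, 5 of 21 kinesin genes and 5 of 24 genes of microtubule-associated proteins were lower at that level (12.8% of all probe sets in either direction) and 0 and 2 were higher, and 4 of 19 dynein and dynactin genes were higher and 1 lower. Of the 20 folding genes 3 were higher and 1 lower there, and 1 gene each of the nucleation and modification lists was lower.

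**Figure D4:**
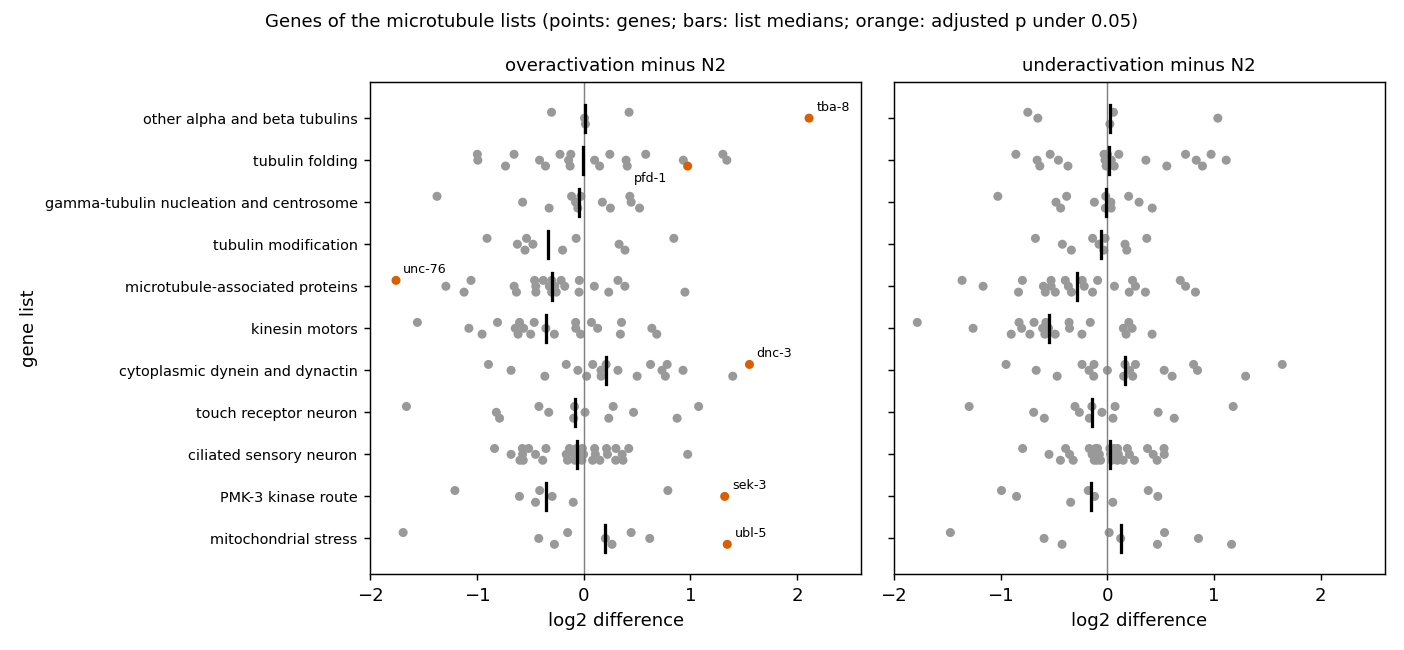
Log2 differences from N2 of the genes in the microtubule, touch receptor neuron, ciliated neuron, PMK-3 route and mitochondrial stress lists, one point per gene, in overactivation on the left and underactivation on the right, with black bars for list medians. Orange points passed at an adjusted p under 0.05, which 6 genes of these lists did in overactivation (tba-8, pfd-1, unc-76, dnc-3, sek-3 and ubl-5) and 0 did in underactivation.

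Genes listed for touch receptor and ciliated neurons were read beside mec-7, mec-12, tbb-4 and tba-9. Whether other cells also express the listed genes was not checked. Of 13 touch receptor neuron genes 0 passed in overactivation against N2, with a median of -0.09. The unadjusted p from limma was under 0.05 for 2 with a higher mean and 2 with a lower one (17.9% of all probe sets). Among them mec-9, which encodes a secreted protein of touch neurons, differed by -1.66 (adjusted p = 0.123), and mec-8, which encodes an RNA-binding protein, by 1.08 (adjusted p = 0.131 from limma). Of 32 ciliated neuron genes 0 passed, with a median of -0.06. For 1, with a lower mean, the unadjusted p from limma was under 0.05 (17.9% of all probe sets). The touch receptor list averaged 5.70 to 5.80 on N2 arrays and 5.57 to 5.72 in overactivation, so that the groups overlapped.

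Genes of the kinase route known to act on tbb-6 and of mitochondrial stress were read beside tbb-6. Of 8 genes of the PMK-3 route 1 passed in overactivation against N2, sek-3, a MAP kinase kinase gene, whereas 1.56% of all probe sets did. At an unadjusted p under 0.05 from limma 2 of the 8 were higher, sek-3 and dlk-1, and 0 lower (17.9% of all probe sets in either direction). The signal of sek-3 was 7.02, 7.07 and 7.29 in overactivation replicates 1, 3 and 4, 5.44 to 6.26 in N2 and 6.05 to 6.26 in underactivation. Overactivation lay above both other groups, by 1.32 log2 over N2 (adjusted p = 0.0341 from limma, which held without N2 replicate 3 and without underactivation replicate 4, in 2 of 9) and by 0.94 over underactivation (adjusted p = 0.460). The call of sek-3 over N2 was lost with trend and robust moderation, with only the groups compared, without moderation and with the fixed replicate block (adjusted p = 0.0731, 0.0917, 0.125 and 0.183 from limma). For pmk-3 and dlk-1, given for their role, the pmk-3 signal was 3.60 to 4.65 in overactivation and 4.25 to 6.92 in N2, and that of dlk-1 9.36 to 10.58 and 8.92 to 9.30, and neither passed (adjusted p = 0.377 and adjusted p = 0.214 from limma). The median of the 8 genes was -0.35.

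Of 9 mitochondrial stress genes 1 passed, ubl-5, which encodes a ubiquitin-like protein, at 1.35 log2 over N2 (adjusted p = 0.0401 from limma, which held without N2 replicate 2 and without underactivation replicate 4, in 2 of 9). The call of ubl-5 was lost with array weights, with only the groups compared, without moderation and with the fixed replicate block (adjusted p = 0.0522, 0.0865, 0.128 and 0.209 from limma). At an unadjusted p under 0.05 from limma 1 of the 9 was higher, ubl-5, and 1 lower, hsp-60. Over all probe sets 17.9% reached that level in either direction and 1.56% passed. The ubl-5 signal was 9.31 to 9.87 in N2, 10.47 to 10.998 in underactivation and 10.65 to 11.29 in overactivation, so that both tagged groups lay above N2, and overactivation minus underactivation was 0.18 (adjusted p = 0.969 from limma). The mitochondrial chaperone genes hsp-6 and hsp-60, given for their role, had means below N2 in both tagged groups. In overactivation the differences from N2 were -0.42 for hsp-6 and -1.69 for hsp-60, where limma gave an adjusted p of 0.347 for hsp-6 and 0.0744 for hsp-60. In underactivation they were -0.42 for hsp-6 and -1.47 for hsp-60. Overactivation minus underactivation was 0.0015 for hsp-6 and -0.22 for hsp-60, and neither gene passed in any comparison. The heat-inducible gene hsp-70 read 4.73 to 8.13 in overactivation, 6.92 to 10.06 in underactivation and 5.86 to 11.16 in N2, and so varied widely within each group. Of the 9 heat shock genes measured 0 passed in overactivation against N2, with 2 lower at an unadjusted p under 0.05 from limma (17.9% of all probe sets). The part of the heat shock in the tbb-6 values was not tested.

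The genes whose signals followed tbb-6 most closely over the 9 arrays were srw-92 (Pearson r = 0.98, Spearman rho = 0.98), F16H6.9 (0.98 and 0.93), B0218.7 (0.96 and 0.90), dod-23 (0.96 and 0.75) and F55C5.6 (0.95 and 0.87). Each had a higher mean in overactivation than in the other groups, which follows from their likeness to tbb-6, itself chosen by its rise there. The first 3 averaged 2.46 to 2.73 outside overactivation, not shown to be above background. For mec-12 the closest were hcf-1 (0.94 and 0.95), nyn-1 (0.94 and 0.87), eif-3.B (0.93 and 0.88), irg-8 (0.93 and 0.95) and T21H3.1 (0.92 and 0.90), and for the bright mec-7 probe set Y47D7A.9 (0.96 and 0.90), btb-6 (0.96 and 0.95), a gene of the clone Y71G12B (0.96 and 0.93), srbc-8 (0.95 and 0.95) and ZC477.10 (0.95 and 0.93). The genes closest to mec-7 averaged 2.34 to 3.47 in every group. These are the highest of 17118 genes over only 9 arrays in 3 groups, and are given as a description. Among the tubulins themselves the closest pair by Pearson was tbb-1 and tbb-6 (r = 0.78, rho = 0.62), whereas by Spearman it was tba-1 and tba-9 (r = 0.43, rho = 0.68) together with tba-2 and mec-7 (r = 0.58, rho = 0.68).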

How the data were processed

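The authors deposited log2 signals, made from scans of Affymetrix C. elegans GeneChips by Robust Multichip Average in Partek (version not given in the sources used here). Array controls (77) were left out. Probe sets were named through the array annotation by gene identifier: 20766 had 1 gene, 887 several and 895 none listed. Columns of values not used numbered 0. The methods call the 3 arrays per group biological replicates.

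All 22548 other probe sets entered 1 linear model of 3 groups in R 4.3.3 with limma 3.58.1 (6 residual and 2.71 prior degrees of freedom), two-sided, with Benjamini-Hochberg adjusted p over them all, and the fit was tested on simulated data. Dim probe sets were kept, and the number of arrays limits precision. Plots used Python 3.11.15 and matplotlib 3.10.9. Exact permutation of 3 against 3 arrays cannot go below p = 0.1 and was not used. All 10 tubulin genes were named. Of each list, up to 3 genes that passed, or otherwise up to 2 with the largest differences, could be named, and the 5 genes closest to tbb-6, mec-7 and mec-12. The 10 genes and the lists were chosen with earlier results of these data known. Alternatives were other normalization, centring, a filter on dim probe sets, moderation, array weights, fewer groups, replicate blocks, other probe sets and leaving out arrays.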

Additional observations from a re-analysis of the deposited data

How the results depend on the processing

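For the 9 tubulin genes other than tbb-6, 0 of 495 alternative values in the 3 comparisons passed, with a smallest adjusted p of 0.174 from limma. Differences near 0 changed sign, at values given to 2 digits. Overactivation minus underactivation became 0.021 (centred medians) and 0.043 (fixed replicate block) for tba-4, 0.027, 0.040 and 0.029 (quantile normalization, centred medians, array weights) for mec-12, and 0.062 and 0.021 (centred medians, array weights) for tbb-4. Underactivation minus N2 became 0.029 for tba-9 and -0.0025 for tbb-1 with array weights, and -0.0018 for tbb-1 with centred medians. Other probe sets of tba-2 gave -0.36 in overactivation and 0.14 in underactivation relative to N2. In the fixed replicate block tbb-2 gave -0.062 in overactivation and tbb-6 0.086 in underactivation, both relative to N2, and tbb-6 gave 1.44 in overactivation relative to underactivation.

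With 1 array left out, overactivation minus N2 ran from -0.52 to 0.028 for tba-1, -0.018 to 0.15 for tba-2 and -0.0022 to 0.39 for mec-7. Overactivation minus underactivation ran from -0.20 to 0.060 for tba-4, -0.27 to 0.31 for mec-12 and -0.11 to 0.086 for tbb-4. Underactivation minus N2 ran from -0.20 to 0.16 for tba-9, -0.055 to 0.092 for tbb-1, -0.34 to 0.018 for tbb-6, -0.25 to 0.15 for mec-7 and -0.29 to 0.082 for the intestinal gene ges-1.

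Counts over all probe sets depended on the fit. The 352 for overactivation against N2 was 3 without moderation, 70 with only the groups compared and 0 with the fixed replicate block, and with 1 array left out it ran from 8 without overactivation replicate 3 to 494 without N2 replicate 2. For overactivation against underactivation the 1 was 7 with quantile normalization, 4 with centred medians, 8 without the dimmest tercile, 12 with trend and robust moderation and 13 with array weights. It was 0 without moderation, with only the groups compared and with the fixed block, and 0 to 7 with 1 array left out. For underactivation against N2 the 1 was 2 with quantile normalization and 16 without the dimmest tercile, 0 without moderation, with only the groups compared and with the fixed block, and 0 to 3 with 1 array left out. The cause was not tested. Same-number arrays of different groups had residual correlations of -0.09 to 0.23, and other pairs -0.20 to 0.21, so the numbers were not taken as pairs. With the replicate block as a random term (correlation 0.06) the counts were 468, 1 and 1.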
